A study of Mus musculus with 26 samples.

Results

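The immediate early response genes are 34 genes of the class whose transcription can start within minutes of a stimulus without new protein synthesis. They were selected by gene symbol from the 56392 genes of a deposited spleen RNA-seq table, and all 34 passed the filter on low values that left 15672 genes for testing. RNA was sequenced from the spleens of female BALB/c mice aged 8 weeks, in 26 libraries with code names that the labels do not define. MM and MN, with 5 libraries each, came from mice that received the hen egg allergen ovalbumin (OVA) and, on day 3, a miR-676-3p mimic, a synthetic double of that microRNA, through the tail vein at 7 mg per kg. OS, with 6 libraries, and ON, with 5, came from mice that received OVA alone. CT, with 5 libraries, came from mice that received saline. OVA was given at 0.05 mg per day into the peritoneum on days 1, 3 and 5, with 20 mice in a group per the labels. Whether a library holds 1 mouse or several is not stated, and p-values therefore measure at most the spread between these libraries. None of the 26 library titles names a control oligonucleotide, and no such group was compared here.

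Immediate early genes are switched on when kinases of the MAPK pathway, calcium or cyclic AMP activate transcription factors that already sit at their promoters, such as SRF with its ternary complex partners and CREB. Many of their products are themselves transcription factors. FOS and JUN proteins pair into the AP-1 factor, and EGR and KLF proteins bind GC-rich DNA, while other members shut the response off again. In lymphocytes they are known as a first answer to antigen receptor or cytokine signals, and in whole organs they also respond to stress and to tissue handling.

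Promoter sequences are shown for 6 members because they carry DNA elements tied to this class of genes. CREB and SRF sites are elements through which the class is known to be switched on. An EGR site, the only element marked in Fosl2, is bound by products of the class itself. Sequences are from a set of RefSeq promoters for GRCm38.p6, and 26 of the 34 members had an entry in that set. The 8 without an entry there, Ier2, Trib1, Sik1, Egr3, Egr1, Gem, Rgs1 and Myc, were not searched. Of the 15 members called in any comparison further below, 9 had an entry. Each run below holds the 180 bases before the annotated start, 5′ to 3′ on the gene's strand, ending at position -1. Capitals mark matches to the CRE (TGACGTCA, the CREB site), to its core TGACG, to an EGR site (GCGTGGGCG or GCGGGGGCG) or to a CArG box (the SRF site). Fos was taken from chr12:85473710-85473889 on the + strand, Fosb from chr7:19310046-19310225 on the - strand and Fosl2 from chr5:32136292-32136471 on the + strand. Btg2 was taken from chr1:134079156-134079335, Srf from chr17:46556163-46556342 and Zfp36 from chr7:28379229-28379408, all on the - strand.
Fos: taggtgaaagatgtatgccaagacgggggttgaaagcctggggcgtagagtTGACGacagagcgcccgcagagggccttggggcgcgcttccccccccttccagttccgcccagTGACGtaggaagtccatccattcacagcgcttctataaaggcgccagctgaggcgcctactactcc
Fosb: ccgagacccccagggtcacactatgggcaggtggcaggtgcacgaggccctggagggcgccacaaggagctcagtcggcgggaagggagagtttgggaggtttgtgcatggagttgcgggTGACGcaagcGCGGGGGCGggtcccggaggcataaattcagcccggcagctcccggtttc
Fosl2: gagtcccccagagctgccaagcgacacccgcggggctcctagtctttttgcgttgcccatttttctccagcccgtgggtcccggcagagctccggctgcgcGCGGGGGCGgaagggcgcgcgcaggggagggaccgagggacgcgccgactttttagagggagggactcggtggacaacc
Btg2: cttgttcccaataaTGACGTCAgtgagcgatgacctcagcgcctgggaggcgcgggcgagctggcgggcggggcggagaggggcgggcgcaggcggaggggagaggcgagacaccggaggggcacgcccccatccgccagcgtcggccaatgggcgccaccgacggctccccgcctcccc
Srf: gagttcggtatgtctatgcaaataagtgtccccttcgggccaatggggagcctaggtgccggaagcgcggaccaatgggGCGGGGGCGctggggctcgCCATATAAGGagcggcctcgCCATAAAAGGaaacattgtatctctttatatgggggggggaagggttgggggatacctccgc
Zfp36: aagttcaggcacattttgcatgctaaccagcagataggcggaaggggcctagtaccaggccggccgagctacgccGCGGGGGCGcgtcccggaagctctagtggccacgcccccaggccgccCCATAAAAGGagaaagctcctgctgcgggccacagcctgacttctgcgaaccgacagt

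The core TGACG stood at positions -129 and -66 of Fos and at -60 of Fosb, and an EGR site stood at -50 of Fosb and at -79 of Fosl2. Btg2 had the whole CRE at -166, Srf had CArG boxes at -82 and -62 with an EGR site at -101, and Zfp36 had a CArG box at -58 with an EGR site at -105. Both strands were searched over 300 bases, from 250 before to 50 after each start, and a gene with several annotated starts was counted when any of them had a match. An EGR site was found in 7 of the 26 members and in 3.47% of all 32851 promoters. CArG boxes were found in 3 members, Egr2, Srf and Zfp36, and in 1.63% of promoters. The whole CRE was found in 3 members, Btg2, Ppp1r15a and Maff, and in 1.79% of promoters. Its core, which also counts inside every whole CRE, was found in 13 members and in 20.8% of promoters. The AP-1 site TGANTCA was found in 1 member, Csrnp1, and in 7.81% of promoters. Of the 9 called members with an entry, 0 had the whole CRE, 0 a CArG box, 0 the AP-1 site, 4 the core and 3 an EGR site. A match describes the letters in this window and is not a measured binding site.

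Several libraries stood apart, and their part in the results below is given as values. In OS 5 and CT 4 the GC-rich genes were low. The genes in the top decile of GC content lay at a median of -0.57 (OS 5) and -0.73 (CT 4) on the log2 scale, each gene relative to its median over all libraries. In the other 24 libraries they lay at -0.22 or above. Of the 34 members, 7 fall in that top decile, 8 in the next and 1 in the lowest. CT 4 also had 6.62% of its reads on mitochondrial genes. Pancreatic genes made up 13.5% of the reads of MM 2, 27.1% of those of ON 2 and 4.05% of those of ON 3, while no other library exceeded 0.0033%, and the pancreas lies next to the spleen. The spleen label fitted its markers, with Spic, the defining factor of red pulp macrophages, between 26.1 and 60.3 FPKM in all 26 libraries. Read depth, recovered from the deposited values, was 14224832 to 18113989 per library.

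The comparison of OVA with saline, which asks what the allergen changed in the spleen, called few of these genes when both OVA codes were averaged. Trib1, Rhob and Cited2 rose, 3 of 34 members against 0.785% of all genes tested that rose, and no member fell. The median log2 difference over the 34 members was 0.55, against 0.01 over all genes, and 32 of 34 differences were above 0. The 2 OVA codes differed from each other, however. In OS against ON, Fosb, Atf3, Klf6 and Gem were higher in OS, 4 of 34 members against 0.172% of all genes, and 33 of 34 differences were above 0 with a median of 0.86 against 0.01 over all genes. An unadjusted p under 0.05 was reached by 28 of the 34, against 10.6% of all genes. In OS against CT, 14 members rose and 20 did not pass, against 1.98% of all genes that rose, all 34 differences were above 0, and their median was 1.00 against 0.00 over all genes. In ON against CT no member was called, the median was 0.00 against 0.01 over all genes, 17 differences were above 0 and 17 below, and no member had an unadjusted p under 0.05, against 13.6% of all genes. limma voom on recovered reads also called 0 members there, against 0.51% of all genes called in either direction by the main limma test. OS against ON and OS against CT share the OS libraries, so their values are given side by side and not as support for each other.

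Library by library, 5 of the 6 OS libraries had between 27 and 33 of the 34 members above the highest saline library, while OS 5 had 6. Over all genes tested that share was 15.9% to 24.5% in those 5 libraries and 19.3% in OS 5. OS 5 was the lowest OS library for 33 of the 34 members. All 6 OS libraries were above all 5 saline libraries for 6 members, Klf6, Cited2, Trib1, Rhob, Sik1 and Rgs1, and for 1.4% of all genes. Among the ON libraries, ON 2 had 19 members above the highest saline library and the other 4 had between 0 and 6, where the share over all genes was 18.8% in ON 2 and 10.5% to 17.1% in the other 4. CT 4 was the lowest saline library for 30 members. The mean over the 34 members, as log2(FPKM + 1) minus the saline mean, was 1.13 ± 0.75 in OS (SD, n = 6) and -0.02 ± 0.36 in ON (SD, n = 5). OS 5 had a mean of -0.27 as deposited and -0.04 once each library's GC trend was removed, and CT 4 had -1.12 as deposited and -0.81 after removal.

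**Figure D1:**
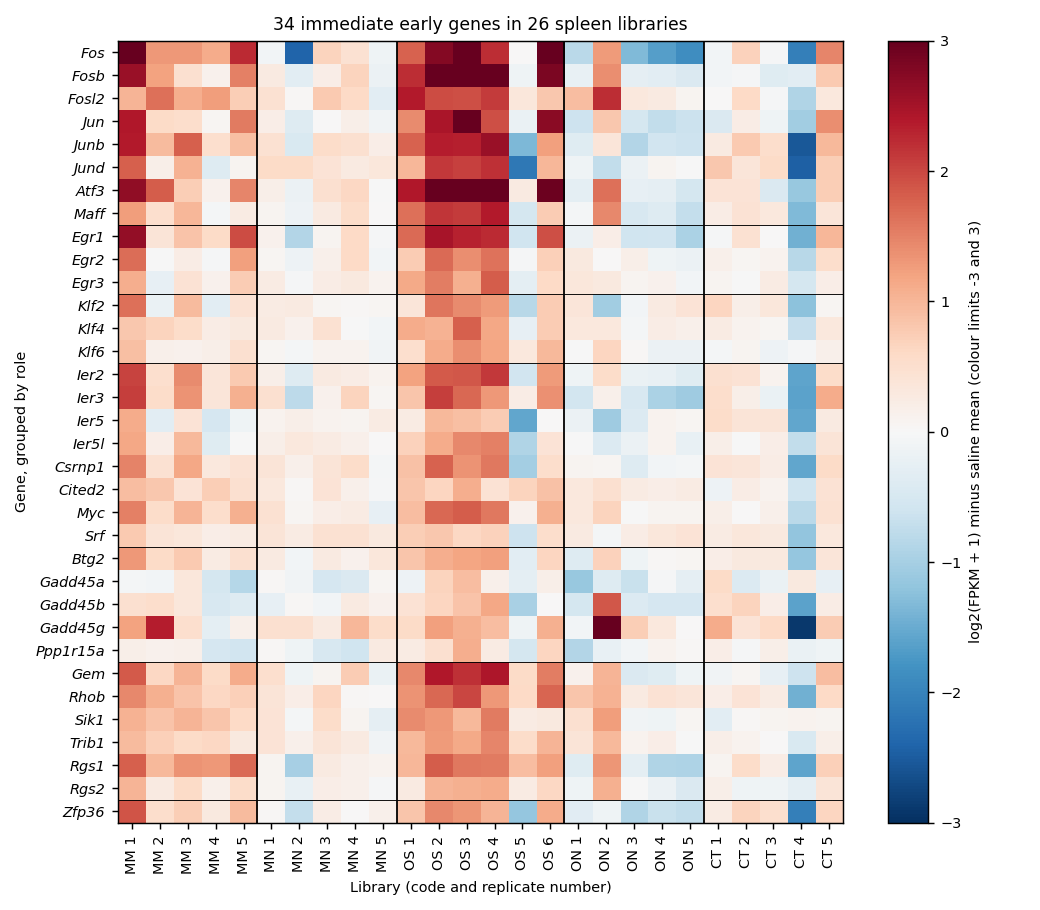
Each cell is the log2(FPKM + 1) of 1 gene in 1 library minus the mean of the 5 saline libraries, with genes in rows by role and libraries in columns by code. Red is higher and blue lower. The OS columns are red apart from OS 5, MM 1 is red for nearly every gene, and CT 4 is blue for most genes, being the lowest saline library for 30 of the 34.

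The AP-1 genes encode the FOS, JUN, ATF and MAF proteins that dimerize on AP-1 sites, and 4 of 8 rose in OS against CT while 2 of 8 were higher in OS than in ON. Fos (ENSMUSG00000021250, chromosome 12, 85520664 to 85524047), the founding member of the class, had FPKM of 17.7 at the lowest, 104 at the median and 160.2 at the highest in OS. Fos stood at 9.42, 43.3, 6.28, 4.80 and 4.04 FPKM in ON 1 to ON 5 and at 16.4, 28.9, 16.9, 3.43 and 49.5 FPKM in CT 1 to CT 5. Of the OS libraries only OS 5 fell within the saline range, and ON 2 was well above the other ON libraries. Fos passed in neither comparison, with a log2 difference of 3.04 ± 0.67 (SE) and an adjusted p of 0.0527 in OS against ON by limma. Fosb (ENSMUSG00000003545, chromosome 7, 19036621 to 19043976), a partner of the JUN proteins, had 0.424, 12.5 and 19.8 FPKM at the lowest, median and highest of OS. It had 0.323, 3.08, 0.291, 0.242 and 0.146 FPKM in ON and 0.459, 0.529, 0.210, 0.251 and 1.69 FPKM in CT. Thus 5 OS libraries were above every ON and CT library, and OS 5 lay among them. Fosb rose by 2.57 ± 0.52 in OS against CT (adjusted p = 0.0072, limma) and was 2.54 ± 0.52 higher in OS than in ON (adjusted p = 0.0393).

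Atf3 (ENSMUSG00000026628, chromosome 1, 190902493 to 190950236), a stress-induced partner that can repress transcription, had 2.76, 25.9 and 51.1 FPKM at the lowest, median and highest of OS. It had 1.56, 8.84, 1.66, 1.59 and 1.19 FPKM in ON and 3.18, 3.18, 1.32, 0.416 and 4.26 FPKM in CT. Every OS library but OS 5 was above every ON and CT library. The log2 difference was 2.72 ± 0.53 in OS against CT (adjusted p = 0.00544, limma) and 2.66 ± 0.53 in OS against ON (adjusted p = 0.0393). Jun (ENSMUSG00000052684, chromosome 4, 94937271 to 94940459), the central AP-1 partner, had 12.05, 68.5 and 135 FPKM at the lowest, median and highest of OS. It had 8.67, 25.2, 9.32, 8.01 and 8.57 FPKM in ON and 10.2, 16.4, 12.7, 6.25 and 38.1 FPKM in CT. CT 5 was the highest saline library, ON 2 the highest ON library, and both were below all OS libraries except OS 5. Jun rose by 1.91 ± 0.49 in OS against CT (adjusted p = 0.0338, limma), a call lost in 8 of 26 fits without 1 library, CT 4 among them. In OS against ON the difference of 2.26 ± 0.49 had an adjusted p of 0.0527. Fosl2 (ENSMUSG00000029135, chromosome 5, 32293145 to 32315186), a FOS relative that persists longer than FOS, had 4.81, 16.6 and 22.9 FPKM at the lowest, median and highest of OS. It had 7.64, 20.2, 4.68, 4.49 and 3.80 FPKM in ON and 3.62, 5.92, 3.48, 1.46 and 4.65 FPKM in CT. Here ON 1 and ON 2 reached the OS range, and OS 5 fell within the saline range. Fosl2 rose by 1.59 ± 0.37 in OS against CT (adjusted p = 0.0193, limma), a call lost without OS 4, and did not pass in OS against ON. The other AP-1 genes, Junb, Jund and Maff, had log2 differences of 1.04 to 1.49 in OS against CT and of 1.23 to 1.91 in OS against ON, none past the threshold.

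**Figure D2:**
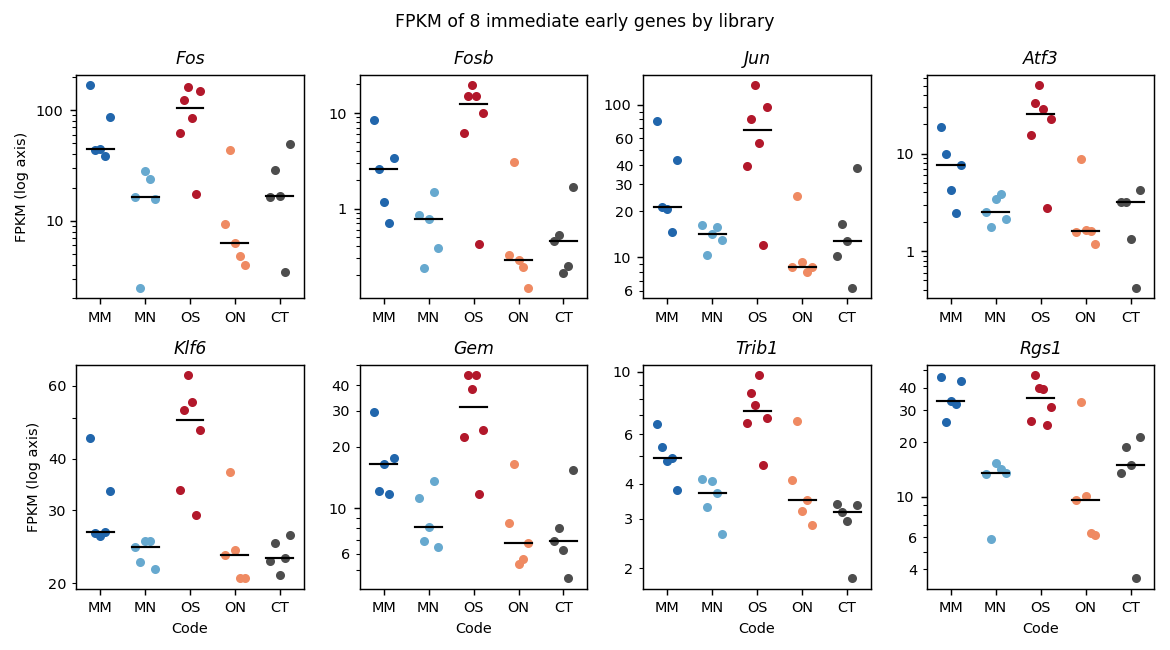
Points are FPKM of single libraries on a log axis for 8 members by code, and bars are medians. For Fos, Fosb, Jun and Atf3 a single OS point, OS 5, lies far below the other 5, and a single ON point, ON 2, lies above the other 4.

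Of the 3 EGR genes, zinc finger factors induced by growth and antigen receptor signals, Egr3 rose in OS against CT. Egr3 (ENSMUSG00000033730, chromosome 14, 70314652 to 70320063) had 7.00, 20.1 and 33.3 FPKM at the lowest, median and highest of OS. It had 11.5, 11.01, 9.32, 9.66 and 8.20 FPKM in ON and 9.38, 8.77, 10.6, 5.80 and 10.3 FPKM in CT. The 5 OS libraries other than OS 5 were above all ON and CT libraries. Egr3 rose by 0.97 ± 0.26 in OS against CT (adjusted p = 0.0432, limma), a call that was lost in 18 of the 26 fits that left out 1 library. Egr1 and Egr2 had differences of 1.68 and 1.03 in OS against CT and of 2.10 and 1.00 in OS against ON, without passing.

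Of the 3 KLF genes, Klf4 and Klf6 rose in OS against CT. Klf6 (ENSMUSG00000000078, chromosome 13, 5911481 to 5920393), a widely expressed zinc finger factor, had 29.2, 49.6 and 63.7 FPKM at the lowest, median and highest of OS. It had 23.4, 37.1, 24.1, 20.5 and 20.6 FPKM in ON and 22.7, 24.9, 21.0, 23.0 and 26.1 FPKM in CT. All 6 OS libraries, OS 5 included, were above all 5 saline libraries, and ON 2 alone of the ON libraries reached the OS range. The log2 difference was 0.91 ± 0.18 in OS against CT (adjusted p = 0.00513, limma) and 0.85 ± 0.18 in OS against ON (adjusted p = 0.0393). Klf4 (ENSMUSG00000003032, chromosome 4, 55527143 to 55532466), a factor of monocyte differentiation and quiescence, had 2.60, 7.91 and 13.8 FPKM at the lowest, median and highest of OS. It had 4.29, 4.30, 3.08, 3.94 and 3.75 FPKM in ON and 4.003, 3.57, 3.40, 1.62 and 4.26 FPKM in CT. OS 5 lay within the saline range and the other 5 OS libraries lay above it. Klf4 rose by 0.94 ± 0.23 (adjusted p = 0.0275, limma), a call lost without any of OS 2, OS 3, OS 4, CT 2, CT 3 and CT 4. Klf2, a factor of lymphocyte quiescence, had a difference of 0.77 in OS against CT and did not pass.

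Among 8 other early nuclear genes, Cited2 and Myc rose in OS against CT and none passed in OS against ON. Cited2 (ENSMUSG00000039910, chromosome 10, 17598966 to 17601422), a transcriptional co-regulator that competes for the coactivators CBP and p300, had 35.3, 44.1 and 56.4 FPKM at the lowest, median and highest of OS. It had 32.6, 36.5, 30.9, 29.7 and 30.8 FPKM in ON and 23.2, 30.03, 27.8, 16.8 and 34.9 FPKM in CT. All OS libraries were above all saline libraries, and OS and ON overlapped only through ON 2 at 36.5 FPKM. Cited2 rose by 0.76 ± 0.15 in OS against CT (adjusted p = 0.00526, limma), and by 0.53 ± 0.13 in OVA against saline (adjusted p = 0.0346). Myc (ENSMUSG00000022346, chromosome 15, 61857240 to 61862223), the growth regulator, had 30.8, 72.6 and 100.04 FPKM at the lowest, median and highest of OS. It had 35.1, 44.9, 27.5, 29.3 and 29.5 FPKM in ON and 31.7, 28.3, 30.9, 15.6 and 38.7 FPKM in CT. OS 5 lay within the saline range and the others above it. The rise of Myc in OS against CT was 1.21 ± 0.26 (adjusted p = 0.0101, limma). The other 6, Ier2, Ier3, Ier5, Ier5l, Csrnp1 and Srf, had differences of 0.22 to 1.29 in OS against CT without passing. Ier3, a regulator of cell survival, was the only member for which all 6 OS libraries lay above all 5 ON libraries, at 10.1 to 38.7 FPKM in OS and 3.55 to 9.53 FPKM in ON, with a difference of 1.83 and an adjusted p of 0.0527 by limma. Of all genes tested, 0.44% had all OS libraries above all ON libraries.

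Of the 6 signalling genes, 5 rose in OS against CT and 1 was higher in OS than in ON. Trib1 (ENSMUSG00000032501, chromosome 15, 59520199 to 59528948), a pseudokinase that directs CEBPA to degradation, had 4.67, 7.25 and 9.74 FPKM at the lowest, median and highest of OS. It had 4.13, 6.66, 3.20, 3.49 and 2.85 FPKM in ON and 3.38, 3.18, 2.94, 1.84 and 3.37 FPKM in CT. All OS libraries were above all saline libraries. Trib1 rose by 1.07 ± 0.17 in OS against CT (adjusted p = 0.00101, limma), a call kept in all alternatives run, and by 0.70 ± 0.15 in OVA against saline (adjusted p = 0.0162). Gem (ENSMUSG00000028214, chromosome 4, 11704457 to 11714752), a small GTPase that restrains calcium channels and the cytoskeleton, had 11.8, 31.3 and 44.9 FPKM at the lowest, median and highest of OS. It had 8.46, 16.4, 5.35, 5.66 and 6.80 FPKM in ON and 6.96, 7.97, 6.22, 4.54 and 15.4 FPKM in CT. Only OS 5 overlapped with ON or CT, below ON 2 and CT 5. The difference of Gem was 1.76 ± 0.33 in OS against CT (adjusted p = 0.00459, limma) and 1.72 ± 0.33 in OS against ON (adjusted p = 0.0304).

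Rhob (ENSMUSG00000054364, chromosome 12, 8547661 to 8550009), a small GTPase of endosomes induced by stress, had 68.5, 133 and 182 FPKM at the lowest, median and highest of OS. It had 80.2, 92.9, 54.5, 60.6 and 58.5 FPKM in ON and 51.9, 59.8, 53.4, 15.9 and 68.1 FPKM in CT. OS 5, at 68.5, was just above the highest saline library, at 68.1. Rhob rose by 1.45 ± 0.28 in OS against CT (adjusted p = 0.00537, limma) and by 1.02 ± 0.25 in OVA against saline (adjusted p = 0.0346). The calls of Rhob and Cited2 in OVA against saline were lost without any of ON 1, ON 2, CT 1, CT 3 and CT 4. Sik1 (ENSMUSG00000024042, chromosome 17, 32063224 to 32074778), a kinase that switches off the CREB coactivators, had 25.2, 47.9 and 64.0 FPKM at the lowest, median and highest of OS. It had 29.9, 51.3, 19.3, 19.3 and 22.0 FPKM in ON and 16.6, 21.4, 22.4, 22.6 and 22.4 FPKM in CT. All OS libraries were above all saline libraries, and ON 1 and ON 2 lay within the OS range. Sik1 rose by 0.97 ± 0.24 in OS against CT (adjusted p = 0.0281, limma), a call lost in 6 of 26 fits without 1 library. Rgs1 (ENSMUSG00000026358, chromosome 1, 144118034 to 144124980), which dampens chemokine receptor signals in lymphocytes, had 25.0, 35.2 and 47.0 FPKM at the lowest, median and highest of OS. It had 9.66, 33.2, 10.1, 6.32 and 6.19 FPKM in ON and 13.5, 18.9, 14.9, 3.57 and 21.4 FPKM in CT. All OS libraries were above all saline libraries and above all ON libraries but ON 2. Rgs1 rose by 1.35 ± 0.37 in OS against CT (adjusted p = 0.0446, limma), a call lost in 17 of 26 fits without 1 library, CT 4 among them. Rgs2, a related regulator of G protein signalling, had a difference of 0.72 and did not pass.

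None of the 5 stress and growth arrest genes passed in OS against CT or OS against ON. Gadd45b and Gadd45g, stress sensors that bind MAPK kinases, were highest in ON 2, at 78.0 and 71.3 FPKM, the library with the most pancreatic reads, and Gadd45g was next highest in MM 2 at 36.8 FPKM, the library with the second most. Whether the pancreatic reads account for these levels was not tested. Gadd45g was listed at 0 in CT 4. Btg2, an antiproliferative gene, was the most abundant member in saline by the median, at 134 FPKM, and Fosb the least, at 0.459 FPKM. Gadd45a and Ppp1r15a, which act in DNA repair and in recovery from translational arrest, had differences of 0.25 and 0.37 in OS against CT. Zfp36, which degrades AU-rich cytokine mRNAs, had differences of 0.76 in OS against CT and 1.31 in OS against ON without passing.

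**Figure D3:**
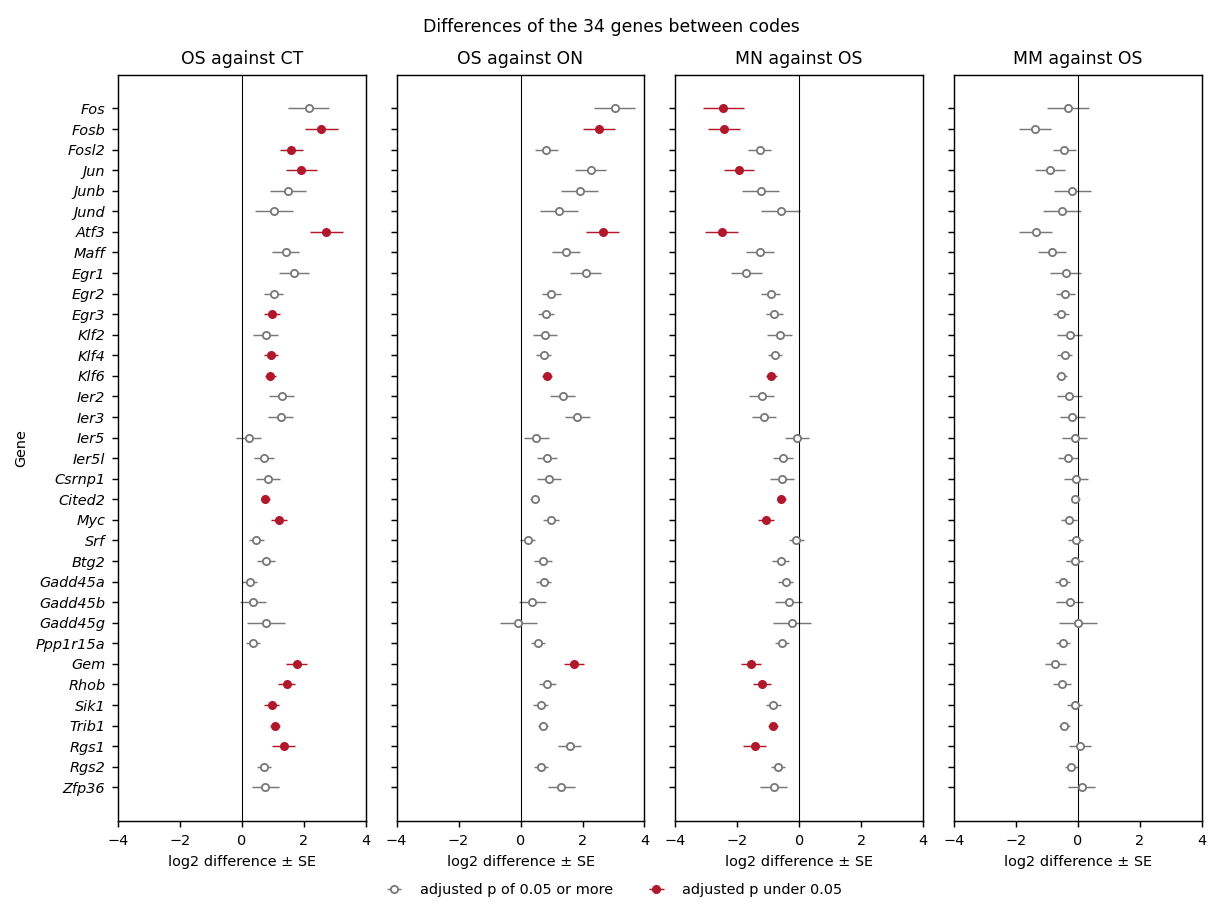
Points are log2 differences of log2(FPKM + 1) with bars of 1 SE for the 34 members in 4 comparisons, and filled points passed an adjusted p of 0.05. All 34 points lie right of 0 in OS against CT and left of 0 in MN against OS, and none is filled in MM against OS.

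The number of calls moved with the libraries in the fit. Without OS 5, the OVA library with low GC-rich genes, 26 members rose in OS against CT and 21 were higher in OS than in ON, and every call named above for these comparisons was kept. Over all genes the calls in either direction were then 633 in OS against CT and 260 in OS against ON, against 469 and 29 with OS 5 in the fit. Without CT 4, 10 members rose in OS against CT and 10 were higher in OS than in ON, with 566 and 67 calls over all genes. Without OS 5 and CT 4, the 2 libraries whose GC-rich genes were low, the counts were 21 and 26, with 647 and 555 over all genes. Without ON 2, 14 members were higher in OS than in ON, with 216 calls over all genes. Without OS 4, only 8 members rose in OS against CT, with 262 calls over all genes. Leaving out OS 2, OS 3, OS 4 or any of ON 1, ON 3, ON 4 and ON 5 left no member called in OS against ON. Each of those fits called 3 to 5 of all genes there. Of the 26 fits without 1 library, the calls in OS against ON were lost in 12 for Fosb, 11 for Atf3, 15 for Klf6 and 7 for Gem. In a fit limited to the 2 groups compared, 1 member, Trib1, rose in OS against CT and none was called in OS against ON. Over all genes those fits called 88 and 0. With 1 mean per treatment in place of 1 per code, none of the 34 was called in OVA against saline. Over all genes 87 were called there, against 340 with 1 mean per code.

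**Figure D4:**
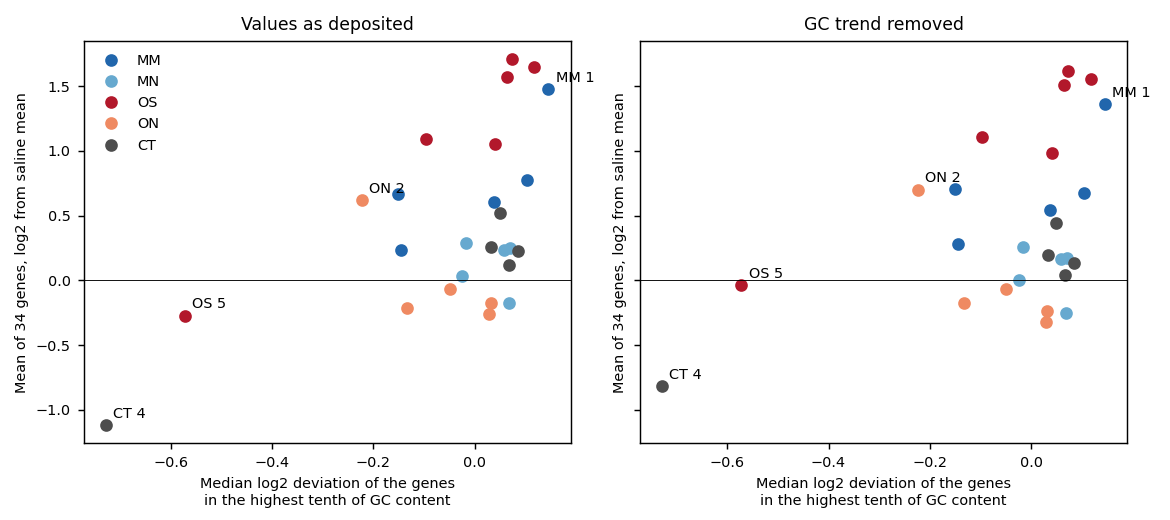
The vertical axis is the mean over the 34 members of log2(FPKM + 1) minus the saline mean, and the horizontal axis is the median log2 deviation of genes in the top decile of GC content, 1 point per library. OS 5 and CT 4 lie at the far left at -0.57 and -0.73, and after the GC trend was removed their means were -0.04 and -0.81.

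The mimic comparison sets mice given OVA and the mimic beside mice given OVA alone. The labels name a tail vein injection for the mimic mice only. The microRNA and the injection of an oligonucleotide therefore cannot be told apart here. Averaged over codes, no member was called in OVA with mimic against OVA, where limma and limma voom called 0 and 3 of 34 had an unadjusted p under 0.05, against 10.1% of all genes, and the share of all genes called was 0%. The median difference was -0.12, against 0.00 over all genes. The codes gave different pictures. In MN against OS, 11 members fell, against 1.6% of all genes that fell, all 34 differences were below 0, and their median was -0.84 against 0.00 over all genes. This comparison shares the OS libraries with OS against CT and OS against ON, so their values are not support for each other. ON, from mice given no mimic, was also lower than OS for 33 of the 34 members. In MM against OS no member was called by limma or voom, 6 of 34 had an unadjusted p under 0.05, against 5.77% of all genes, and the median was -0.32 against 0.00 over all genes, of which 0% were called. In the direct comparison of the mimic codes, MM against MN, 32 of 34 differences were above 0 with a median of 0.50 against 0.00 over all genes. No member was called there by limma or voom, 13 had an unadjusted p under 0.05, against 7.25% of all genes, and 0.172% of all genes were called. All 5 MM libraries were above all 5 MN libraries for 7 members, Fos, Klf6, Ier2, Myc, Sik1, Rgs1 and Zfp36, and for 2.02% of all genes.

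The 11 members that fell in MN against OS came from 4 roles. They were Fos, Fosb, Jun and Atf3 of the AP-1 genes, Klf6, the nuclear genes Cited2 and Myc, and the signalling genes Gem, Rhob, Trib1 and Rgs1. Fos had 169, 44.0, 44.4, 38.8 and 86.0 FPKM in MM 1 to MM 5 and 16.4, 2.47, 28.1, 24.1 and 15.9 FPKM in MN 1 to MN 5, against a median of 104 FPKM in OS. MN 2 was far below the other MN libraries, and MM 1 was the highest library of all. Fos fell by 2.45 ± 0.67 on the log2 scale in MN against OS (adjusted p = 0.0458, limma), a call lost in 18 of 26 fits without 1 library. Fosb had 8.38, 2.61, 1.17, 0.701 and 3.42 FPKM in MM and 0.864, 0.240, 0.785, 1.48 and 0.383 FPKM in MN. OS 5, at 0.424 FPKM, lay within the MN range and below all MM libraries. Fosb fell by 2.44 ± 0.52 in MN against OS (adjusted p = 0.0116, limma).

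Jun had 77.6, 21.2, 20.6, 14.5 and 43.2 FPKM in MM and 16.1, 10.4, 14.2, 15.9 and 12.9 FPKM in MN. MM 4 overlapped with MN and the other MM libraries were above it. Jun fell by 1.94 ± 0.49 in MN against OS (adjusted p = 0.0347, limma). Atf3 had 18.7, 10.03, 4.20, 2.45 and 7.69 FPKM in MM and 2.53, 1.76, 3.39, 3.84 and 2.11 FPKM in MN. OS 5, at 2.76 FPKM, lay within the MN range. Atf3 fell by 2.51 ± 0.53 in MN against OS (adjusted p = 0.0116, limma).

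Klf6 had 44.8, 26.4, 25.9, 26.5 and 33.3 FPKM in MM and 24.5, 22.5, 25.3, 25.2 and 21.6 FPKM in MN. All MN libraries were below all OS and all MM libraries. Klf6 fell by 0.90 ± 0.18 in MN against OS (adjusted p = 0.00713, limma), the smallest adjusted p of the members there. Cited2 had 49.7, 45.7, 34.7, 43.6 and 36.5 FPKM in MM and 32.6, 26.3, 34.8, 28.6 and 25.0 FPKM in MN. All MN libraries were below the lowest OS library, at 35.3, and MM 3 alone overlapped with MN. Cited2 fell by 0.58 ± 0.15 in MN against OS (adjusted p = 0.0328, limma). Myc had 81.0, 41.0, 57.3, 40.3 and 59.6 FPKM in MM and 38.6, 29.0, 32.2, 33.3 and 23.2 FPKM in MN. The MM libraries were all above the MN libraries, and OS 5 lay within the MN range. Myc fell by 1.07 ± 0.26 in MN against OS (adjusted p = 0.0256, limma).

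Gem had 29.7, 12.2, 16.4, 11.8 and 17.7 FPKM in MM and 11.2, 6.88, 8.07, 13.6 and 6.45 FPKM in MN. MN 4 was the only MN library above the lowest OS library. Gem fell by 1.56 ± 0.33 in MN against OS (adjusted p = 0.0114, limma). Rhob had 124, 94.5, 81.5, 69.1 and 74.4 FPKM in MM and 58.6, 51.7, 70.3, 46.1 and 45.7 FPKM in MN. MN 3 was above OS 5 and MM 4, and the other MN libraries were below all OS and MM libraries. Rhob fell by 1.19 ± 0.28 in MN against OS (adjusted p = 0.0221, limma). Trib1 had 6.53, 5.39, 4.82, 4.95 and 3.81 FPKM in MM and 4.15, 3.31, 4.09, 3.70 and 2.64 FPKM in MN. Every MN library was below every OS library. Trib1 fell by 0.84 ± 0.17 in MN against OS (adjusted p = 0.00839, limma). Rgs1 had 46.0, 25.8, 33.5, 32.6 and 43.2 FPKM in MM and 13.3, 5.84, 15.5, 14.2 and 13.6 FPKM in MN. All MN libraries were below all OS and all MM libraries. Rgs1 fell by 1.43 ± 0.37 in MN against OS (adjusted p = 0.0365, limma).

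The 4 members called in OS against CT and not in MN against OS, Fosl2, Egr3, Klf4 and Sik1, had lower means in MN than in OS as well. Fosl2 had 8.22, 13.4, 8.77, 9.85 and 6.64 FPKM in MM and 5.31, 3.65, 6.93, 5.86 and 2.67 FPKM in MN. Egr3 had 19.8, 7.28, 12.3, 9.78 and 15.7 FPKM in MM and 10.6, 8.57, 10.5, 11.1 and 9.63 FPKM in MN. Klf4 had 6.44, 5.76, 5.25, 3.96 and 4.19 FPKM in MM and 4.09, 3.64, 4.80, 3.21 and 3.02 FPKM in MN. For these 3 genes the MM and MN ranges overlapped. Sik1 had 44.0, 38.6, 43.3, 38.2 and 32.4 FPKM in MM and 28.0, 20.0, 31.0, 22.3 and 17.1 FPKM in MN, with all MM libraries above all MN libraries.

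All 5 MN libraries lay below all 6 OS libraries for 5 members, Klf6, Cited2, Trib1, Rgs1 and Rgs2, and for 2.57% of all genes. Without OS 5, 22 members fell in MN against OS and without CT 4, which enters the fit through the shared spread, 17 fell. The calls over all genes in either direction were then 660 and 1103, against 453 with every library. Leaving out MN 2, MN 5 or OS 3 left 5, MN 4 left 6, and MN 3, OS 2 or OS 4 left 7. Calls over all genes were then lower too, at 189, 233, 288, 248, 203, 281 and 274 in that order. Of the 26 fits without 1 library, the calls were lost in 9 for Jun, 9 for Rgs1, 6 for Myc, 5 for Cited2 and 4 for Rhob, and in none for Fosb, Atf3, Klf6, Gem and Trib1. OS 5 had low values for most members and belongs to the OS side of this comparison.

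Set against saline, neither mimic code had a member past the threshold. In MM against CT no member passed by limma, 18 had an unadjusted p under 0.05, against 9.78% of all genes, and 0.3% of all genes were called. The median was 0.73 against 0.00 over all genes, and the smallest adjusted p was 0.0529, for Cited2, by limma. There voom called 1 member, with 58 calls over all genes. All 5 MM libraries were above all 5 saline libraries for 6 members, Fosl2, Myc, Rhob, Sik1, Trib1 and Rgs1, and for 1.2% of all genes. In MN against CT no member passed by limma or voom, none had an unadjusted p under 0.05, against 2.88% of all genes, no gene of the whole table was called (0%), and the median was 0.14 against 0.01 over all genes. In OVA with mimic against saline, 0 members passed by limma or voom, 6 had an unadjusted p under 0.05, against 6.72% of all genes, and the share of all genes called was 0%. In MM against ON, 0 members passed by limma or voom and 16 had an unadjusted p under 0.05, against 3.61% of all genes, with 0% of all genes called. In MN against ON, 0 passed by limma or voom and 0 had an unadjusted p under 0.05, against 9.78% of all genes, with 0.249% of all genes called. The mean over the 34 members was 0.75 ± 0.45 in MM and 0.13 ± 0.19 in MN on the log2 scale from the saline mean (SD, n = 5 each). MM 1 had 31 members above the highest saline library, the other MM libraries 8 to 21, and the MN libraries 0 to 6. Over all genes that share was 19.0% in MM 1, 15.8% to 16.9% in the other MM libraries and 8.65% to 13.4% in the MN libraries.

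Genes that act before or beside the immediate early genes mostly did not pass. Of 22 tested genes of upstream signalling (kinases and factors such as CREB1 and ELK1), Crem alone was called. Crem, whose inducible form represses CREB targets, rose by 1.11 ± 0.28 in OS against CT (adjusted p = 0.0278, limma) and fell by 1.08 ± 0.28 in MN against OS (adjusted p = 0.0347). Of 13 tested AP-1 partners none rose or fell in OS against CT, and Nfe2l2, the oxidative stress factor, fell by 0.43 in MN against OS. Of 27 tested relatives of the members, Zfp36l1, Zfp36l2, Trib2 and Mxd1 rose in OS against CT, by 0.80, 1.06, 0.70 and 0.77, and Mxd1, a MYC antagonist, fell by 0.74 in MN against OS. Of 12 cytoskeletal SRF targets none was called in OS against CT and Tpm1 fell by 0.42 in MN against OS. Median differences of these 4 lists in OS against CT were 0.05, 0.12, 0.11 and 0.10, against 1.00 for the members, whose choice was made with earlier results known. None of the 4 lists had a gene called in OS against ON. In OVA against saline, Zyx of the SRF targets rose by 0.57 and the relatives Mxd1 and Klf9 by 0.60 and 0.56, and in MM against CT, Zfp36l2 rose by 1.26.

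Lists of other responses gave further values. Of 15 tested inflammatory genes, the chemokines Ccl3 and Ccl4, the prostaglandin synthase Ptgs2 and the NF-kB inhibitor Tnfaip3 rose in OS against CT, by 1.57, 1.77, 1.55 and 1.41. In MN against OS, Ptgs2 fell by 1.70 and Tnfaip3 by 1.42. Of 11 tested glucocorticoid response genes, Per1, Errfi1 and Pdk4 rose in OS against CT, by 1.35, 1.93 and 0.99. In MN against OS, Errfi1 fell by 1.57 and Fkbp5 and Zbtb16 rose, by 0.81 and 0.86. Of 11 tested heat shock genes, the near-identical copies Hspa1a and Hspa1b rose in OS against CT, by 3.63 and 3.92, and reads may be split between them. Median differences in OS against CT were 0.92 for the inflammatory list, 0.98 for the glucocorticoid list and 0.11 for the heat shock list, against 1.00 for the members. In OVA against saline, Per1, Errfi1, Pdk4 and Klf9, which is also on the glucocorticoid list, rose, by 1.02, 1.39, 0.92 and 0.56, and in MM against CT, Errfi1 and Pdk4 rose, by 1.67 and 1.07.

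Cell type markers were read beside these results. Of 14 marker lists, summed FPKM separated OS from CT for the 4 NK cell genes, at 8.55 to 13.6 in OS and 14.3 to 17.9 in CT. The sum in ON, at 6.02 to 13.6, lay below CT as well. It was 12.1 to 14.7 in MM and 8.87 to 17.0 in MN. Of the 4 genes 1, Ncr1, fell in OS against CT and in OVA against saline. Ncr1 had means of 5.88 FPKM in OS and 10.9 FPKM in CT, a large part of the sum. No NK cell marker was at 0 in any library. The neutrophil sum was 2174 to 7294 in OS and 1492 to 8160 in CT, and 0 of its 9 genes passed. In MM that sum was 924 to 4852 and in MN 1149 to 8016, while in ON it was 2487 to 5953. All 9 neutrophil genes had lower means in MM than in OS, ON or MN, with median log2 differences of -1.30, -1.14 and -0.95, and 8, 8 and 0 of them had an unadjusted p under 0.05 without any passing the adjusted threshold. No neutrophil gene passed in OVA with mimic against OVA either, where 5 had an unadjusted p under 0.05 and the median was -0.82. The erythroid sum separated MM, at 19323 to 29847, from CT, at 36227 to 66837. Ribosomal protein genes took 3.74% to 6.47% of reads in OS, 2.72% to 4.40% in ON and 5.77% to 7.63% in CT. In MM they took 3.36% to 7.54% and in MN 5.12% to 6.03%. The part of cell composition and of RNA quality in the results was not tested, and in bulk tissue fewer cells of a type and less RNA per cell cannot be told apart.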

How the data were processed

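Poly(A) RNA of spleen was sequenced and the deposited table holds FPKM, a fragment count relative to gene length and library size, as computed by the authors. The submitters' processing notes list, without roles, featureCounts 1.5.0-p3, HISAT2 2.0.5, edgeR 3.24.3, CASAVA, DESeq2 1.20.0 and StringTie 1.3.3b. The sources used here name no genome build. Gene positions are those of the deposited table, and of 52083 shared gene IDs 2.8% have the coordinates of GRCm38, which holds for the promoter sequences only. In all 26 libraries 100% of values came out as whole reads (tolerance 0.05), which gave read depth, counting error only. The library size implied by the FPKM values was 0.712 (ON 2) to 1.12 (ON 1) times that depth, so FPKM was not scaled to read depth alone.

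The filter kept genes that reached 1 FPKM in 5 or more libraries. limma 3.58.1 in R 4.3.3 fitted log2(FPKM + 1) with 1 mean per code, using all 26 libraries and a variance trend. Benjamini-Hochberg adjustment ran over the 15672 genes of each of 13 comparisons, and genes with an adjusted p under 0.05 were called. Fold changes on this scale understate the change of low genes. Treatment comparisons average the code means, MM with MN for OVA with mimic and OS with ON for OVA. All 34 members are named, with values by library for the 15 called in any comparison (lowest, median and highest for the 6 OS libraries), and from each other list at most 4 called genes per comparison. The members, lists and comparisons were chosen with earlier results of these data known. GC content was taken from the longest annotated transcript, known for 34 of 34 members and 95.3% of genes tested. Alternatives are a pseudocount of 0.1, no filter, only the groups compared, a single mean per treatment, a replicate block, library weights, 2 other scalings, voom on recovered reads, and libraries left out. One of the scalings, by median ratio, changed little, with factors of 0.994 (CT 4) to 1.02 (MM 3). Alternatives based on GC content, and those leaving out CT 4 with others, were chosen after seeing the data. Replicate numbers are shared between codes, but of 50 same-numbered pairs 9 had a correlation of their deviations above 0.1, so the numbers were not taken to pair libraries.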

Additional observations from a re-analysis of the deposited data

Results flagged for a closer look

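In each code with 5 or 6 libraries, a library was marked when its gap to the nearest other exceeded Dixon's 95% limit relative to the range of the group. Of 170 gene and group combinations 35 were marked. The limit alone marks about 1 in 20, but the members share libraries, so the combinations are not independent. The share marked over all genes was not computed. Values are FPKM.

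Saline library CT 4 was marked as the lowest of CT for 15 members. These were the AP-1 genes Junb at 7.69, Jund at 4.61 and Maff at 0.317, the zinc finger gene Klf4 at 1.62, and the nuclear genes Ier2 at 15.2, Ier5 at 11.3, Csrnp1 at 3.40 and Srf at 8.65. The growth arrest genes Btg2 at 48.9, Gadd45b at 6.20 and Gadd45g at 0 were marked too, with the signalling genes Rhob at 15.9, Trib1 at 1.84 and Rgs1 at 3.57 and the mRNA decay gene Zfp36 at 12.7. CT 1 was the lowest of CT for Sik1, at 16.6. OS 5 was the lowest of OS for Junb at 19.1, Jund at 5.93, Egr1 at 8.44, Ier2 at 31.3, Srf at 13.4 and Zfp36 at 24.4. GC-rich genes were low in both OS 5 and CT 4, and the part of this in the levels was not tested.

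ON 2, the library with the most pancreatic reads, was the highest of ON for 9 members. They were Fosb at 3.08, Jun at 25.2, Atf3 at 8.84, Klf6 at 37.1, Ier2 at 70.2, Gadd45b at 78.0, Gadd45g at 71.3, Rgs1 at 33.2 and Rgs2 at 52.1. MN 2 was the lowest of MN for Fos at 2.47, Ier2 at 35.9, Rgs1 at 5.84 and Zfp36 at 33.3.

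The 2 OVA codes differed for 4 members by the direct limma comparison of OS with ON. Log2 differences were 2.54 for Fosb, 2.66 for Atf3, 0.85 for Klf6 and 1.72 for Gem. These calls were lost in 12, 11, 15 and 7 of 26 fits without 1 library, and all 4 in the fit of only the groups compared. The labels do not define the codes, so a different response to OVA cannot be told apart from any other difference between them.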

How the results depend on the processing

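Every log2 difference of the 32 calls kept its direction under all alternatives run, 14 calls held when each library was left out in turn, and 5 held under all alternatives (Trib1 in OS against CT, and Atf3, Klf6, Gem and Trib1 in MN against OS). Main counts were 3 members in OVA against saline, 4 in OS against ON, 14 in OS against CT and 11 in MN against OS, in that order below. Main calls over all genes in either direction were 340, 29, 469 and 453, and those of the alternatives follow in the same order. With no filter on low values the member counts were 1, 0, 9 and 5, with 150, 6, 283 and 246 over all genes. In fits of only the groups compared the member counts were 0, 0, 1 and 8, with 1 each in MM against CT, MM against MN and MN against ON. Those fits called 117, 0, 88 and 502 over all genes. They called 17 over all genes in MM against CT, 123 in MM against MN and 632 in MN against ON. A single mean per treatment gave 0 in OVA against saline, with 87 over all genes. Library weights gave 12, 27, 24 and 28, where the calls over all genes were 1435, 564, 1353 and 1746 against 340, 29, 469 and 453. They also gave 3 members in MM against CT (518 against 47 over all genes) and 6 in MM against MN (474 against 27). In MM against ON they gave 5 (16 against 0 over all genes), and in ON against CT 5 lower (859 against 80). Equal FPKM sums without pancreas genes gave 9, 4, 21 and 10 and 3 in MM against CT. Calls over all genes were then 683, 21, 669 and 345, with 95 in MM against CT. The median over all genes was then 0.17 in OVA against saline, 0.13 in OS against CT and 0.20 in ON against CT. It was 0.17 in MM against CT, 0.11 in MN against CT and 0.14 in OVA with mimic against saline. Without libraries with pancreatic reads the counts were 1, 10, 15 and 14, with 108, 123, 562 and 655 over all genes. A pseudocount of 0.1 gave 3, 1, 13 and 10, with 309, 17, 465 and 386 over all genes. For voom the counts were 3, 5, 13 and 11 with 1 in MM against CT. Over all genes voom called 326, 39, 447 and 460, with 58 in MM against CT. The replicate block gave 3, 0, 11 and 8, with 184, 3, 306 and 258 over all genes. In that fit OS 6 carries no information because number 6 occurs in OS only. Of alternatives chosen after seeing the data, removing the GC trend gave 5, 8, 18 and 15 with 1 in MM against CT. Calls over all genes were then 476, 35, 655 and 613, with 77 in MM against CT. Leaving out the libraries with a GC trend gave 3, 26, 21 and 28, where the calls over all genes were 413, 555, 647 and 1239. It gave 1 member each in MM against MN, MM against ON and, lower, ON against CT. Over all genes the calls there were 81, 2 and 303. Leaving out CT 4 and the libraries with pancreatic reads gave 0, 12, 12 and 19 with 1 each in MM against CT, MM against MN and MM against ON. Calls over all genes were then 128, 214, 836 and 1368. In MM against CT, MM against MN and MM against ON they were 66, 83 and 3. Leaving out each library in turn gave 1 to 11, 0 to 21, 8 to 26 and 5 to 22, with 0 to 2 in MM against CT and 0 to 1 in MM against MN and in MM against ON. Calls over all genes were then 152 to 484, 3 to 260, 261 to 633 and 189 to 1103. They were 20 to 78 in MM against CT, 1 to 54 in MM against MN and 0 to 4 in MM against ON. The cause of these changes was not tested. Fits that left libraries out also held fewer libraries, and the part of this was not tested either.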
